A study of Mus musculus with 15 samples.

Results

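The genes described here are 10 markers of injured tubule cells and of simple epithelium: Havcr1, Lcn2, Krt7, Krt8, Krt18, Krt19, Cd24a, Sox9, Vcam1 and Spp1. They were followed in RNA from kidney fibroblasts sorted for PDGFRa, a growth factor receptor of interstitial cells. A gene was represented by a probe set whose annotation names that gene alone, and, where several existed, by the one with the highest mean over all arrays. This found 9 of the 10 genes among 17097 measured, and Spp1 was not analysed here. The data are 15 arrays in 5 groups of 3, all from adult C57BL/6 mice. Folic acid, which injures the tubules after it crystallises in them, had been given 3, 7 or 14 days before the cells were isolated. Unilateral ureteral obstruction (UUO), in which one ureter is tied off, had lasted 14 days, and the remaining group was uninjured kidney. No genetic change is given for any group, and the labels do not tell separate animals from repeated samples, so p-values measure the spread between arrays only. Levels are log2 intensities, differences are log2 differences between group means, and adjusted p-values come from limma over 13523 genes.

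Tubule cells that are damaged lose transport functions and switch on a small set of genes that are used as injury markers in urine and tissue. Havcr1 encodes KIM-1, a surface receptor with which injured proximal tubule cells take up dying neighbours, and Lcn2 encodes NGAL, a secreted protein that binds bacterial iron carriers and is made by injured distal tubule, by neutrophils and by other stressed cells. Krt7, Krt8, Krt18 and Krt19 are keratins of simple epithelium, Cd24a is a surface glycoprotein of immature and regenerating epithelium, Sox9 is a transcription factor of regenerating tubule, and Vcam1 is an adhesion molecule found on endothelium, on some fibroblasts and on tubule cells that fail to repair.

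Lcn2 and Havcr1 were the members that passed the test. Lcn2 was higher than in uninjured kidney in all 4 injury groups, by 12.9-fold to 45.7-fold, and Havcr1 was higher at day 7 of folic acid, by 21.6-fold. These folds are set against uninjured values below the median of their own array, and a second Havcr1 probe set gave 3.68-fold. The other 7 measured members did not pass the test in any comparison. Limma called 1 of 9 members higher and 0 lower at folic acid day 3, where 10.6% of all genes were called higher and 6.39% lower. At day 7 it called 2 members higher and 0 lower, against 7.5% and 4.19% of all genes. At day 14 it called 1 higher and 0 lower, against 4.2% and 1.47% of all genes. In UUO it called 1 higher and 0 lower, against 9.07% and 7.52% of all genes. At an unadjusted p under 0.05 the numbers of members higher were 2, 3, 5 and 1 in that order, against 17.4%, 14.9%, 12.1% and 15.1% of all genes, and the only member lower was Krt7 at day 3, while lower genes made up 13.6%, 12.2%, 8.25% and 14.7% of all in that order. An F test for any difference among the 5 groups called Lcn2 (adjusted p = 0.000798) and Havcr1 (adjusted p = 0.0266), where 15.3% of all genes were called. The Havcr1 call of that F test did not hold without folic acid day 7 array 2 or without any single uninjured array (adjusted p = 0.0671 to 0.0814), nor with its other probe set (adjusted p = 0.0687).

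**Figure D1:**
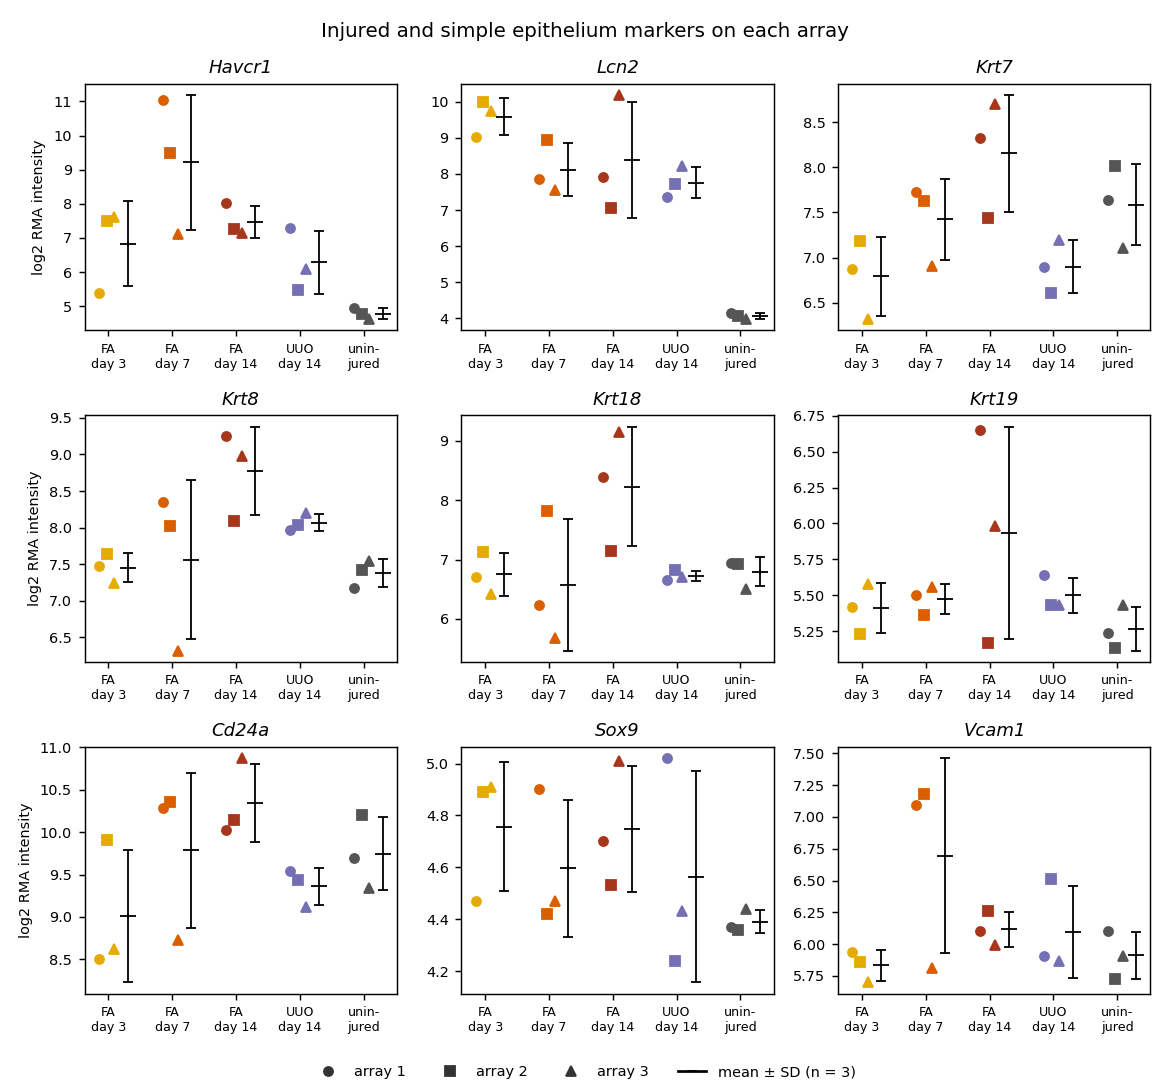
Log2 RMA intensity (vertical axes, scaled separately) of the 9 measured genes on each of the 15 arrays, by group: FA, folic acid. UUO, unilateral ureteral obstruction. Symbols are arrays, and the bars are the mean ± SD of 3 arrays. The 3 uninjured arrays lie below all 12 injury arrays for Lcn2 and, on the probe set plotted, for Havcr1. Groups overlap for most other genes. Group by group, 15.5% to 22.7% of all genes lay wholly above uninjured kidney.

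Promoter windows from RefSeq (build GRCm38.p6, 250 bases before to 50 after each gene start) were given for 6 of the 10 genes. The windows of the 2 genes with calls are shown because they are the members that the results turn on. Lcn2 lies on the minus strand at chr2:32387690-32387989. Havcr1 has 3 such windows, and the one shown is chr11:46750261-46750560 on the plus strand. Capitals mark the match to TTGCNNAA on either strand, a form of the motif of C/EBP factors, and overlap no other motif searched. The window of Havcr1 was chosen after the search because it holds that match.
Lcn2: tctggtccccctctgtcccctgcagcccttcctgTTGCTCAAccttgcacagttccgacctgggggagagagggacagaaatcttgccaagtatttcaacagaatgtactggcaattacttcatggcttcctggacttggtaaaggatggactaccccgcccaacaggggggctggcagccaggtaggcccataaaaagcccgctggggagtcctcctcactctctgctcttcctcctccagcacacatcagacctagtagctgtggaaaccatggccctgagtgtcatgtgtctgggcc
Havcr1: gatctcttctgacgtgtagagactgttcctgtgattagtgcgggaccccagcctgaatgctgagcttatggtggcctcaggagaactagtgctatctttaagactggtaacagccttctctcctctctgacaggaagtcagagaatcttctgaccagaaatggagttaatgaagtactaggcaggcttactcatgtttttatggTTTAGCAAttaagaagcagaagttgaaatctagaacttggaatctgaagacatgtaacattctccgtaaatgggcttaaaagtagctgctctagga
Counted from the gene start, the match begins at -216 in Lcn2 and at -46 in Havcr1. It occurs in 10.8% of the 32851 windows of the mouse table. The windows shown hold no match on either strand to TGANTCA (AP-1, in 7.81% of windows), TTCNNNGAA (STAT, 8.3%), TATAAA (13.6%), ACAATGG (SOX, 3.66%), the NF-kB motif (1.63%) or the HNF1 motif (0.00913%). Another Havcr1 window, chr11:46750918-46751217, holds an AP-1 match that begins at base 11 of the gene (the start counted as base 1) and no C/EBP match. The windows of Krt7, Krt8 and Krt18, all on chromosome 15, were richer in G and C, at 66.3%, 58% and 61.3%. Lcn2 had 56.3%, the Havcr1 window shown 43.3% and the median over all windows was 52.7%. Krt7 and Krt18 held 21 and 17 CG pairs, Krt8 held 6, and the Lcn2 and Havcr1 windows shown held 3 each, where the median window held 7. The other Havcr1 windows had 43.7% and 46.7% G and C, with 4 and 2 CG pairs.

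The sorted cells carried RNA of fibroblasts and of other kidney cells, and the part of other cells in the level of each member was not tested. Pdgfra, the gene behind the sort, was between 4.24 and 7.20 over the 15 arrays and did not pass the test against uninjured kidney in any injury group (log2 difference 0.68, -0.51 and -0.72 at folic acid days 3, 7 and 14 and -0.02 in UUO, adjusted p = 0.465, 0.633, 0.54 and 0.973). Its level exceeded the median of its own array on 1 of 3 arrays at day 7, 2 of 3 at day 14 and all 3 in each other group. It exceeded the upper quartile on 2 of 3 arrays at day 3 and 1 of 3 in each other group. The 15 fibroblast markers averaged 9.08 to 9.19 in UUO, 7.23 to 8.63 in the folic acid arrays and 5.49 to 6.04 in uninjured kidney, the lowest of the groups. Umod, a hallmark transcript of the thick ascending limb, had 8.76 to 12.05 in the injury arrays and 11.17 to 12.15 in uninjured arrays, all above the upper quartile of their own array. The array medians lay between 4.93 and 5.06. In bulk RNA, fewer cells of a type and less RNA per cell cannot be told apart.

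Lcn2 had 9.03, 9.99 and 9.75 at folic acid day 3, 7.86, 8.94 and 7.56 at day 7, and 7.91, 7.07 and 10.19 at day 14. It had 7.36, 7.71 and 8.21 in UUO, against 4.16, 4.07 and 3.99 in uninjured kidney. Every injury array therefore lay above every uninjured array, as for 22.7%, 18.4% and 15.5% of all genes at days 3, 7 and 14 and 20.3% in UUO, and all 3 uninjured values were below the median of their own array, so each fold is set against a dim signal. The difference from uninjured kidney was 5.51 at day 3 (SE 0.63, 95% interval 4.15 to 6.88, adjusted p = 0.000124, 45.7-fold). It was 4.04 at day 7 (16.5-fold, adjusted p = 0.00141), 4.31 at day 14 (19.9-fold, adjusted p = 0.00179) and 3.69 in UUO (12.9-fold, adjusted p = 0.00179), each with SE 0.63. The order of the means was day 3 (9.59 ± 0.50), day 14 (8.39 ± 1.62), day 7 (8.12 ± 0.73), UUO (7.76 ± 0.43) and uninjured (4.07 ± 0.09, SD, n = 3 each). Of the neighbours in this order, day 14 minus day 3 was -1.20 (interval -2.56 to 0.16, adjusted p = 0.376) and day 14 minus day 7 was 0.27 (interval -1.09 to 1.63, adjusted p = 0.952), and neither passed the test. Day 7 and UUO were not compared. Day 7 minus day 3 was -1.47 (interval -2.83 to -0.11, adjusted p = 0.4), although all day 7 arrays lay below all day 3 arrays, as for 7.85% of all genes. Array 3 of day 14 held the highest Lcn2 value of the series. Without it, day 14 minus day 3 was -2.10 (adjusted p = 0.022).

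Havcr1 had 5.39, 7.49 and 7.62 at folic acid day 3, 11.04, 9.50 and 7.12 at day 7, and 8.02, 7.26 and 7.16 at day 14. It had 7.30, 5.47 and 6.09 in UUO, against 4.95, 4.77 and 4.64 in uninjured kidney. Day 7 had the widest spread of any member in any group. On this probe set all 12 injury arrays were above all 3 uninjured arrays, which lay below their own array medians. Group by group, 22.7%, 18.4% and 15.5% of all genes lay wholly above uninjured kidney at days 3, 7 and 14, and 20.3% in UUO. The share for all 12 injury arrays at once was not computed. Against uninjured kidney the difference was 4.43 at day 7 (SE 0.85, interval 2.59 to 6.27, adjusted p = 0.00556). It was 2.04 at day 3 (interval 0.21 to 3.88, adjusted p = 0.12), 2.69 at day 14 (interval 0.85 to 4.53, adjusted p = 0.0879) and 1.50 in UUO (interval -0.34 to 3.34, adjusted p = 0.262). Fits to only the 6 arrays compared called day 3 and day 14 as well (adjusted p = 0.0468 and 0.0102), as did array weights (adjusted p = 0.0362 and 0.0449). The mean order was day 7 (9.22 ± 1.97), day 14 (7.48 ± 0.47), day 3 (6.83 ± 1.25), UUO (6.29 ± 0.93) and uninjured (4.79 ± 0.16, SD, n = 3 each). Of the neighbours in this order, day 14 minus day 7 was -1.74 (adjusted p = 0.595) and day 14 minus day 3 was 0.65 (adjusted p = 0.784), and day 3 and UUO were not compared. Day 7 minus day 3 was 2.39 (adjusted p = 0.281), and 3.44 without array 3 of day 7 (adjusted p = 0.039). The second Havcr1 probe set gave a smaller difference at day 7, 1.88 (SE 0.50, adjusted p = 0.0287), and 0.23 on day 3, 0.77 on day 14 and 0.07 in UUO (adjusted p = 0.796, 0.421 and 0.95). It had 6.43, 6.96 and 6.03 at day 3 and 6.23, 5.86 and 6.85 in UUO, against 6.47, 6.07 and 6.19 in uninjured kidney, so these groups overlapped and the uninjured values lay above their own array medians. The probe sets therefore disagree on whether Havcr1 is dim in uninjured kidney.

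**Figure D2:**
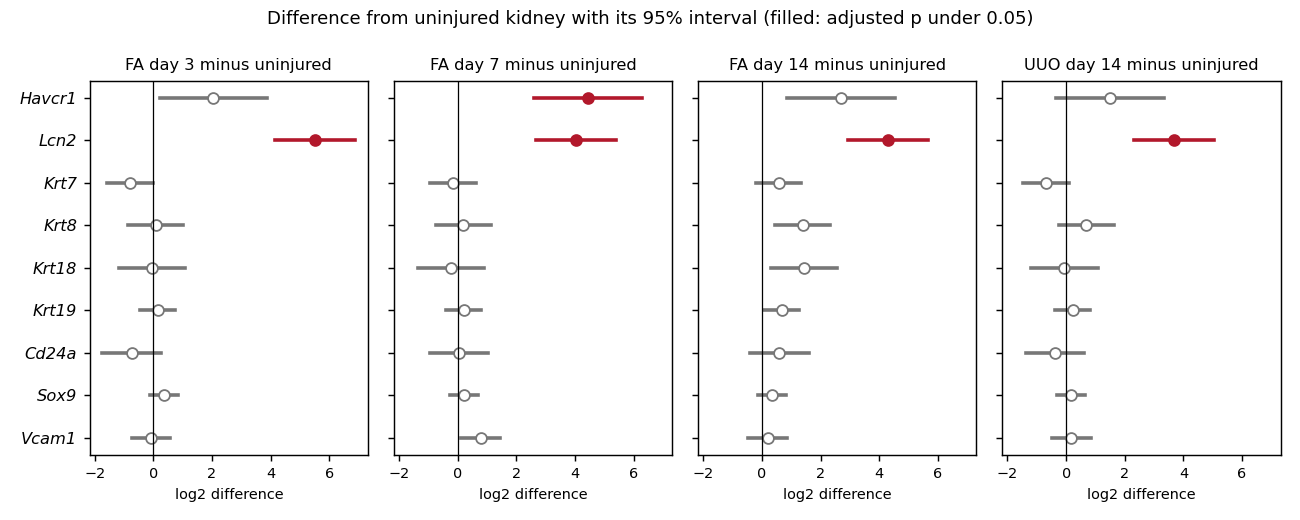
Log2 difference (horizontal axis) of each injury group minus uninjured kidney for the 9 measured genes, with the 95% interval of limma's fit. FA, folic acid. Filled points passed an adjusted p under 0.05: Lcn2 in all 4 panels and Havcr1 at day 7.

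The keratins of simple epithelium pair as filaments, a type II keratin (Krt7, Krt8) with a type I keratin (Krt18, Krt19). Krt8 had 7.24 to 7.64 at folic acid day 3, 8.35, 8.02 and 6.32 at day 7, 9.25, 8.09 and 8.98 at day 14 and 7.97 to 8.20 in UUO, against 7.17, 7.42 and 7.54 in uninjured kidney. Day 14 did not overlap uninjured kidney (wholly above for 15.5% of all genes), but the difference of 1.39 (SE 0.43, interval 0.46 to 2.33) had adjusted p = 0.0819. Its other probe set gave 1.40 at day 14 (SE 0.38, adjusted p = 0.0502). UUO values also lay wholly above the uninjured values (20.3% of all genes), with a difference of 0.69 (interval -0.24 to 1.63, adjusted p = 0.312, and 0.0216 in a fit to only those 6 arrays).

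Krt18, the usual partner of Krt8, had 6.42 to 7.13 at day 3, 6.24, 7.81 and 5.67 at day 7, 8.39, 7.15 and 9.15 at day 14 and 6.65 to 6.82 in UUO, against 6.94, 6.93 and 6.51 in uninjured kidney. Only day 14 lay wholly above uninjured kidney (15.5% of all genes), with a difference of 1.44 (SE 0.52, interval 0.31 to 2.57, adjusted p = 0.134). Krt7, a keratin of collecting duct and urothelium, had 6.87, 7.18 and 6.32 at day 3, 7.73, 7.63 and 6.91 at day 7, 8.33, 7.44 and 8.70 at day 14 and 6.90, 6.61 and 7.19 in UUO, against 7.64, 8.01 and 7.11 in uninjured kidney. Uninjured kidney had the second highest mean of the 5 groups, after day 14: the difference from it was -0.80 at day 3 (adjusted p = 0.15, and -0.99 with adjusted p = 0.0333 under array weights), -0.16 at day 7 (adjusted p = 0.815), 0.57 at day 14 (adjusted p = 0.406) and -0.68 in UUO (adjusted p = 0.224). Krt19, a keratin without the usual tail domain, was 6.65, 5.17 and 5.98 at day 14 and 5.13 to 5.64 on the other 12 arrays. Its day 14 difference was 0.67 (interval 0.07 to 1.27, adjusted p = 0.192).

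Array 2 of folic acid day 14 was the lowest of its group for all 4 keratins. Without that array, the day 14 differences from uninjured kidney were 1.74 for Krt8, 1.98 for Krt18 and 1.05 for Krt19 (limma adjusted p = 0.0399, 0.034 and 0.00894), each past the threshold. The Krt7 comparison of day 14 with day 3 likewise passed without it (log2 difference 1.72, adjusted p = 0.0261), against 1.37 and adjusted p = 0.0631 with all arrays. So did Krt19 for day 14 minus day 3 (0.91, adjusted p = 0.0393) and Krt7 for UUO minus day 14 (-1.61, adjusted p = 0.0426). On array 3 of day 7, Krt7, Krt8 and Krt18 were the lowest of the 3 arrays of that day, as were Havcr1, Lcn2, Cd24a and Vcam1.

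Cd24a had 8.50, 9.91 and 8.62 at day 3, 10.28, 10.35 and 8.73 at day 7, 10.02, 10.14 and 10.87 at day 14 and 9.54, 9.43 and 9.12 in UUO, against 9.70, 10.20 and 9.34 in uninjured kidney. Its 15 values were all above the upper quartile of their own array, uninjured kidney included, and no comparison passed the test on this probe set. The differences from uninjured kidney ran from -0.74 at day 3 (interval -1.74 to 0.26) to 0.59 at day 14 (interval -0.41 to 1.60). A second Cd24a probe set was called lower in UUO (-1.65, SE 0.47, adjusted p = 0.0297), where the first gave -0.38 (interval -1.38 to 0.62, adjusted p = 0.635), so the probe sets disagree.

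Sox9 lay between 4.24 and 5.02 on all arrays and above its own array's median on 2 of 15, array 3 of folic acid day 14 and array 1 of UUO. Its largest difference from uninjured kidney was 0.36 at day 3 (interval -0.11 to 0.83, adjusted p = 0.279). At days 3 and 14 all its arrays lay above all uninjured arrays (4.36 to 4.44), as for 22.7% and 15.5% of all genes, without passing the test. A second Sox9 probe set gave -0.18 and 0.00 (adjusted p = 0.516 and 0.994). Vcam1 had 7.09, 7.18 and 5.81 at day 7 and 5.70 to 6.51 on the other 12 arrays. Its day 7 difference from uninjured kidney was 0.78 (interval 0.11 to 1.44, adjusted p = 0.123). Without array 3 of that day the difference was 1.22 (adjusted p = 0.0037), and day 7 minus day 3 was 1.30 (adjusted p = 0.014), both past the threshold only without that array or, for uninjured kidney, with the simple epithelium mean as a covariate (1.12, adjusted p = 0.0324).

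With all arrays, comparisons between the injuries called no member. UUO minus folic acid day 14 was below 0 for 9 of 9 members, with a median of -0.70 against -0.01 over all genes, and limma called 0 higher and 0 lower, where 1.28% of all genes were called higher and 1.75% lower. At an unadjusted p under 0.05, 2 were lower: Krt7 (-1.25, interval -2.03 to -0.48, adjusted p = 0.082) and Krt18 (-1.50, interval -2.63 to -0.37, adjusted p = 0.149). These and Cd24a, 3 members in all, had every UUO array below every day 14 array, as had 11.1% of all genes, and 9.71% of all genes were lower at an unadjusted p under 0.05. Day 14 minus day 3 called 0 members, with 1.22% of all genes higher and 1.83% lower. Krt7, Krt8, Krt18 and Cd24a were higher there at an unadjusted p under 0.05, by 1.37, 1.32, 1.48 and 1.33, against 7.45% of all genes. Day 7 minus day 3 called 0 members (0.274% of all genes higher, 0.422% lower), with Havcr1 and Vcam1 higher and Lcn2 lower at an unadjusted p under 0.05, against 4.68% of all genes higher and 6.37% lower. Day 14 minus day 7 called 0 members (0.00739% of all genes higher, 0.0444% lower), with Krt8 and Krt18 higher at an unadjusted p under 0.05, by 1.21 and 1.66, against 4.35% of all genes.

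Genes of simple epithelium in general did not follow Lcn2. Of 24 listed genes of that kind with no member among them, such as junction proteins and epithelial transcription and splicing factors, 20 were tested. The shares of all genes called in each comparison, given above beside the members, apply to this list and to those below. In UUO 0 were higher and 5 lower than in uninjured kidney. They included Cdh16, the kidney cadherin, at -2.14 (adjusted p = 0.00468), Cdh1, E-cadherin, at -2.13 (adjusted p = 0.0145), Pax8, a nephron transcription factor, at -1.26 (adjusted p = 0.014), and the splicing factor Esrp2 at -0.67 (adjusted p = 0.0111). At day 3, 0 were higher and 3 lower, Pax8, Cdh16 and Esrp2, at -1.33, -1.64 and -0.56 (adjusted p = 0.0106, 0.02 and 0.0285), and at day 7 0 were higher and 1 lower, Esrp2 (-0.62, adjusted p = 0.024). At day 14, 2 were higher and 0 lower, namely Mal2, a protein of apical membrane traffic (1.48, adjusted p = 0.0161), and Elf3, an epithelial transcription factor (0.50, adjusted p = 0.0423). Both were dim in uninjured kidney, at 4.42 to 4.51 and 4.78 to 4.97, below the median of their own array on all 3 arrays. The median log2 difference of the 20 was -0.61, -0.27, 0.35 and -0.66 at days 3, 7 and 14 and in UUO, against 0.02, 0.01, 0.02 and -0.01 over all genes. UUO minus day 14 was called lower for 4 of them and higher for 0: Cdh16 (-2.80, adjusted p = 0.00672), Mal2 (-1.83, adjusted p = 0.0107), Cdh1 (-2.90, adjusted p = 0.0129) and the protease St14 (-1.30, adjusted p = 0.0447).

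Of the other genes known from injured tubules, 17 were tested. Of these, 8 were higher and 1 lower at day 3, where 10.6% of all genes were higher and 6.39% lower. The counts were 3 and 0 at day 7 (7.5% and 4.19% of all genes), 3 and 0 at day 14 (4.2% and 1.47%), and 2 and 1 in UUO (9.07% and 7.52%). Whether this list differs from the simple epithelium list was not tested. The fibrinogen chain genes Fga and Fgg were 2.71 and 1.92 higher at day 3 (adjusted p = 0.000394 and 0.00325), and Fga was still 1.91 higher at day 7 (adjusted p = 0.00587). Clu, a secreted chaperone, was higher in all 4 groups, by 0.89, 0.97 and 1.32 on days 3, 7 and 14 and 0.74 in UUO (adjusted p = 0.00971, 0.009, 0.00238 and 0.0238). Sox4, a transcription factor that fibroblasts also use, was 0.99 higher on day 3, 2.87 on day 7, 2.30 on day 14 and 3.44 in UUO (adjusted p = 0.0374, 7.9e-05, 0.000778 and 1.78e-05). Plin2, a lipid droplet protein, was 1.19 higher at day 3 (adjusted p = 0.0206). Lgals3, a lectin that macrophages make in quantity, was 1.99 higher at day 14 (adjusted p = 0.0127). The epithelial integrin chain Itgb6 was lower at day 3 (-1.61, adjusted p = 0.0416) and in UUO (-1.83, adjusted p = 0.0232). Of 10 further keratins tested, mainly of stratified epithelium, 1 was called in these 4 comparisons: Krt14 was 0.45 higher in UUO (adjusted p = 0.0389). Its uninjured values, 4.63 to 4.87, lay below their own array medians, and no UUO array exceeded its upper quartile.

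Receptors and ligands of the members, with target genes of Sox9, numbered 15 tested. At day 3 and at day 7, 3 were higher and 1 lower, at day 14 1 and 0, and in UUO 3 and 1. Of all genes, 10.6%, 7.5%, 4.2% and 9.07% were higher in that order, and 6.39%, 4.19%, 1.47% and 7.52% lower. The partner of Vcam1, the integrin chain Itga4, had 5.44 to 6.11 at day 3, 5.41 to 6.83 at day 7 and 5.75 to 6.12 in UUO, against 7.77 to 8.78 in uninjured kidney. It was lower in these groups, at -2.45, -2.00 and -2.34 (adjusted p = 0.00185, 0.00945 and 0.00244). The chain it pairs with, Itgb1, was not called (0.84, 0.63 and 0.51, adjusted p = 0.0876, 0.217 and 0.303). The receptor chains for osteopontin, the product of Spp1, include Itgb5, which was 1.11, 2.70 and 1.66 higher at days 3, 7 and 14 and 2.52 higher in UUO (adjusted p = 0.0357, 0.000277, 0.0117 and 0.0003), Itga9, 1.29 and 1.43 higher at day 3 and in UUO (adjusted p = 0.0302 and 0.0183), and Cd44, 2.22 higher at day 7 (adjusted p = 0.0119). Timd4, a receptor of the same family as Havcr1, was below the median of its own array on all 15 arrays. Slc22a17, which takes up the Lcn2 protein, was 5.55 to 6.10 on all arrays and was not called against uninjured kidney (adjusted p = 0.156 or more). Col2a1, a target of Sox9 in mouse cartilage, was 0.83, 0.64 and 0.95 higher at day 3, at day 7 and in UUO (adjusted p = 0.0106, 0.0482 and 0.00488), while Acan, another such target, lay below the median on 14 of 15 arrays.

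**Figure D3:**
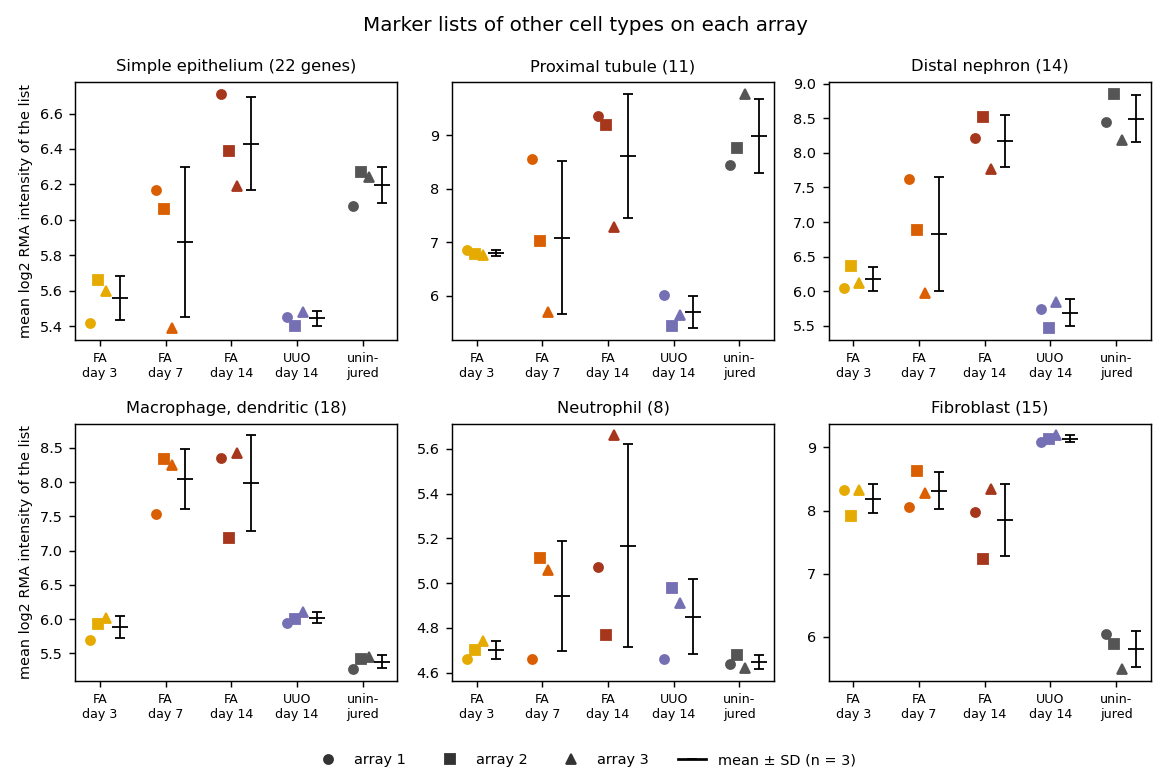
Mean log2 RMA intensity (vertical axes, scaled separately) of 6 marker lists on each array, by group. FA, folic acid. The number of measured genes is in each title. Proximal tubule and distal nephron markers are lowest in UUO, where they average 5.43 to 6.02 and 5.47 to 5.85, against 8.44 to 9.77 and 8.18 to 8.85 in uninjured kidney.

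Marker levels of some other cell types also differed between groups. Tubule markers, in 11 genes of proximal tubule, averaged 6.76 to 6.86 at day 3, 8.55, 7.02 and 5.69 at day 7, 9.36, 9.20 and 7.28 at day 14 and 5.43 to 6.02 in UUO, against 8.44 to 9.77 in uninjured kidney. Of these 11, 5 were lower and 0 higher at day 3, 2 and 0 at day 7, 0 and 0 at day 14 (0 also at an unadjusted p under 0.05) and 9 and 0 in UUO. The 14 genes of distal nephron were lower in 11, 8, 1 and 14 cases and higher in 0 in the same order. Lcn2 was higher in UUO and at day 3, and these tubule markers were lower there. The lists do not tell fewer tubule cells from damaged cells that have lost transport functions. On the 3 day 7 arrays, Havcr1 (11.04, 9.50 and 7.12) had the same order as the proximal (8.55, 7.02 and 5.69) and distal lists (7.62, 6.88 and 5.98), and Slc27a2, a fatty acid transporter of proximal tubule, had 10.40, 8.42 and 6.45. The 3 uninjured arrays had high values of both lists and, on the chosen probe set, the lowest Havcr1. On the second Havcr1 probe set, array 3 of day 3 (6.03) and array 2 of UUO (5.86) lay below all uninjured arrays. Whether tubule RNA in the sort had a part in the Havcr1 and Lcn2 differences was not tested.

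Markers of immune cells also moved. The 18 genes of macrophages and dendritic cells averaged 5.70 to 6.01 at day 3, 7.54 to 8.34 at day 7, 7.18 to 8.42 at day 14 and 5.95 to 6.11 in UUO, against 5.27 to 5.44 in uninjured kidney. Of 17 tested, 4, 11 and 10 were higher on days 3, 7 and 14 and 3 in UUO, where 1 was lower. Krt8 and Krt18, and Lcn2, were lowest of day 14 on array 2, where this list was also lowest (7.18, against 8.36 and 8.42 on arrays 1 and 3). The fibroblast list (7.23, against 7.98 and 8.34) and the other tubule injury genes (6.50, against 7.08 and 7.15) were lowest on that array too. The distal nephron list was instead highest there (8.52, against 8.21 and 7.77 on arrays 1 and 3). The proximal tubule list (9.20, against 9.36 and 7.28) and the simple epithelium list (6.39, against 6.71 and 6.19) lay between the other arrays. The 8 neutrophil genes were highest on array 3 of day 14 at 5.66, against 5.07 and 4.77 on arrays 1 and 2 and 4.62 to 4.68 in uninjured kidney, and that array had the highest Lcn2 (10.19) and Krt18 (9.15). S100a9, the brightest of them, had 8.25 there. At day 3, where Lcn2 was highest on average, the neutrophil list was dim, at 4.66 to 4.74 against array medians of 4.93 or more. Limma called 0 of its 5 tested genes there, with 0 at an unadjusted p under 0.05. It called 0 in the other 3 injury groups too, where 1, 2 and 0 were higher at an unadjusted p under 0.05 at day 7, day 14 and in UUO. The part of immune cells in these results was not tested.

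**Figure D4:**
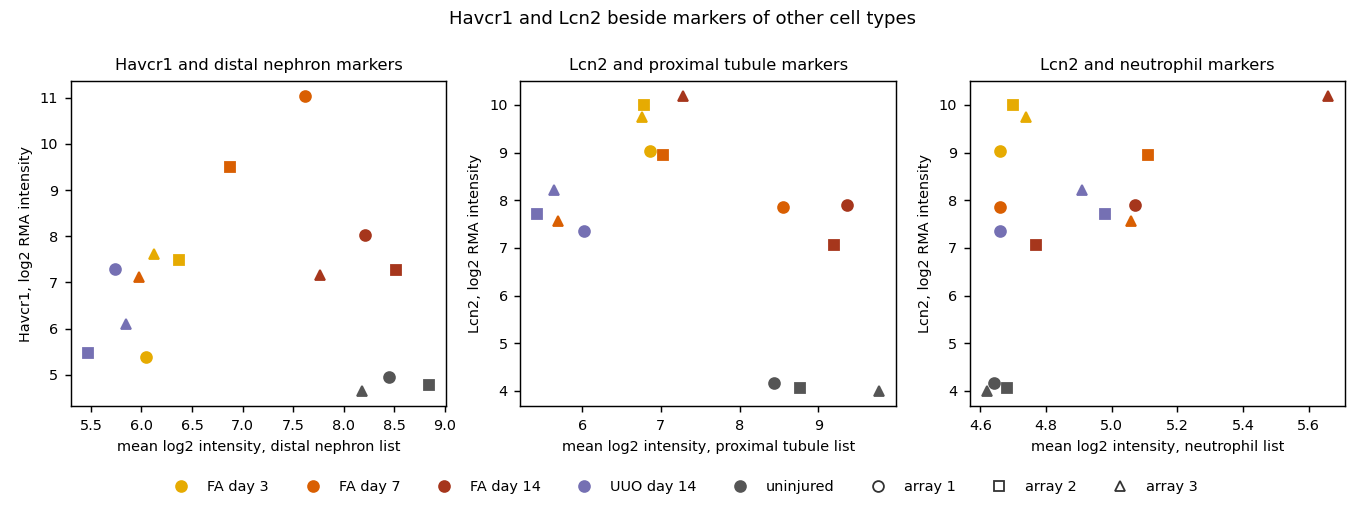
Log2 RMA intensity of Havcr1 or Lcn2 (vertical axes) against the mean log2 intensity of a marker list (horizontal axes) on the 15 arrays, coloured by group (FA, folic acid) and with a symbol for each array. Uninjured arrays combine the lowest Lcn2 and, on the probe set plotted, the lowest Havcr1 with high tubule marker levels. Array 3 of folic acid day 14 has the highest Lcn2 and neutrophil marker levels.

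Fits with a marker list as a covariate gave mixed results. With the proximal tubule mean, the Lcn2 difference in UUO was 2.23 (adjusted p = 0.307) and with the simple epithelium mean 3.63 (adjusted p = 0.0781), both no longer past the threshold, while Lcn2 at days 3, 7 and 14 kept its call. Havcr1 gained calls at day 3 (3.84, adjusted p = 0.0321) and day 14 (3.00, adjusted p = 0.025) with the proximal tubule mean, and at day 3 (4.59, adjusted p = 0.00552) and in UUO (4.50, adjusted p = 0.0139) with the simple epithelium mean. Krt8 gained a call at day 14 with the proximal tubule mean (1.53, adjusted p = 0.0366) and in UUO with the simple epithelium mean (2.18, adjusted p = 0.0212). With the macrophage and dendritic cell mean, Lcn2 was 0.11 at day 7 (adjusted p = 0.993) and 0.47 at day 14 (adjusted p = 0.966), and Havcr1 at day 7 was 5.78 (adjusted p = 0.651). The day 3 and UUO arrays do not overlap uninjured arrays in the proximal tubule mean or the simple epithelium mean (5.42 to 5.66 and 5.40 to 5.48, against 6.08 to 6.27 in uninjured kidney for simple epithelium). The injury arrays do not overlap uninjured arrays in the macrophage mean either. The lost and the gained calls in these groups are therefore extrapolated along a slope fitted within groups. With the macrophage mean as covariate, 5 of all genes at day 7 and 2 at day 14 were called.

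The genes whose pattern over the 15 arrays was most like each member's are given with Pearson's r as a description, since arrays of one group share their condition. For Lcn2 they were Pdcd6ip (0.951), Rpl23 (0.948) and Rgs19 (0.946), and for Havcr1 Actn2 (0.887), Lbhd2 (0.845) and Vac14 (0.826). For Cd24a they were Epcam (0.842), which is on the simple epithelium list, Plet1 (0.824) and Ddr1 (0.821). For Krt7 they were Cd82 (0.861), St14 (0.837), also on that list, and Ptger3 (0.833). Krt8 was nearest to Atp6v0e (0.843), Krt18 to Ccrl2 (0.817), Sox9 to Pcsk4 (0.827) and Vcam1 to Actl6a (0.869). Krt19 was nearest to an immunoglobulin kappa variable gene (0.863), then to Gpnmb (0.845), a macrophage marker gene, and Cmklr1 (0.843). Among the 100 genes most like Cd24a were 7 of the 20 tested simple epithelium genes, and among those most like Krt7 were 5 of the 14 of distal nephron. For Havcr1 and Lcn2 the 100 held 0 of either list. The 100 for Lcn2 held 2 of the 15 fibroblast genes and no gene of the other 14 lists. Those for Havcr1 held 2 of 17 macrophage and dendritic cell genes and 0 of the fibroblast genes. They also held 1 of 17 tubule injury genes, 1 of 15 receptor, ligand and target genes and 1 of 6 podocyte and parietal cell genes. With the simple epithelium, proximal tubule, distal nephron and macrophage means, Havcr1 had r of 0.18, -0.01, -0.08 and 0.68 over the 15 arrays. With each group's mean subtracted, r was 0.81, 0.64, 0.75 and -0.17 in that order. The day 7 arrays, with the widest Havcr1 spread (SD 1.97), weigh most in the epithelial values. For Lcn2 the same lists gave -0.34, -0.53, -0.57 and 0.46 over the 15 arrays. With group means subtracted they gave -0.02, -0.46, -0.17 and 0.66, and the neutrophil, tubule injury and fibroblast means gave 0.84, 0.69 and 0.69. Lcn2 spread most among the day 14 arrays (SD 1.62).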

How the data were processed

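Total RNA of the sorted cells was amplified and labelled with biotin, per the labels' protocols. The deposited values are log2 intensities from RMA (45141 probe sets on each array), per the submitters' processing notes, and these were used without further normalization. The platform annotation supplied gene names: 28898 probe sets named 1 gene, 551 named several and 15692 none in the table used here. Tests covered the 13523 genes that exceeded the 40th percentile of an array's probe sets on 3 or more arrays, all 9 measured members included. Group means were fitted to the 15 arrays by limma (version 3.58.1, R 4.3.3; lmFit, eBayes, 2-sided moderated test, Benjamini-Hochberg adjustment, called at an adjusted p under 0.05). No background or detection calls were used, and the number of arrays limits the precision. Tested on simulated data with log2 changes of 1 and 2, the fit recovered 42% and 84% of changed genes for folic acid day 3 against uninjured kidney, with 9 false calls. The members, the gene lists and the tests were chosen with earlier results of these data known. Named genes were the members, Pdgfra, up to 4 called genes of each list per comparison, the partners of members, the nearest genes by Pearson's r and the brightest gene of each marker list. Promoter windows came from RefSeq, and plots were drawn with matplotlib 3.10.9. Alternatives covered normalization, weights, the arrays in the fit, the filter, the probe set, the threshold, marker covariates and each array left out.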

Additional observations from a re-analysis of the deposited data

How the results depend on the processing

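Lcn2 kept its call in 19 of 19 alternatives for folic acid day 3, in 18 for each later day and in 17 for UUO, and Havcr1 at day 7 in 18. Lcn2, Krt7, Krt18, Krt19 and Vcam1 each had 1 probe set, so the mean of probe sets and the second probe set could not change their log2 values. These settings are counted all the same, here and in the total for single genes below. When single arrays were left out, the Lcn2 calls held every time in each of the 4 comparisons, and Havcr1 at day 7 ranged from 3.52 to 5.48. The number of members called against uninjured kidney moved as follows. At day 3 it was 1, 3 with array weights (2 higher, 1 lower), and 2 with only the 6 arrays compared, with the proximal tubule covariate or with the simple epithelium covariate. At day 7 it was 2, 3 with the simple epithelium covariate or without array 3 of day 7 (Vcam1 added), and 0 with the macrophage covariate. At day 14 it was 1, 3 with array weights or the proximal tubule covariate, 2 with only the 6 arrays compared, and the macrophage covariate left 0. In UUO it was 1, 2 with only the 6 arrays compared, with the simple epithelium covariate or with second probe sets (an alternative chosen after seeing the data), and 0 with the proximal tubule covariate. The F test called 2 members, 3 with array weights (Krt7 added) or the simple epithelium covariate (Krt8 added), and 1 at a threshold of 0.01, with the macrophage covariate or with second probe sets. With single arrays left out, members called ranged from 1 to 5 in the F test, from 1 to 4 at day 14 against uninjured kidney, from 0 to 2 at day 7 against day 3 and day 14 against day 3, and from 0 to 1 in UUO against day 14, the highest values without array 2 of day 14 or array 3 of day 7. The cause was not tested, beyond the fewer arrays or the stricter threshold of these settings. Of 1593 values of single genes 1456 kept direction and side of the threshold, 33 gained a call, 12 lost one, and 92 uncalled values changed sign, with a size of at most 2.82 after it. No called value turned round under these alternatives. No paired analysis was possible because the running numbers of the samples are not shared between groups. Among the members, dim signal limits Sox9, the uninjured level of Lcn2 and, on 1 of its 2 probe sets, that of Havcr1.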
